A study of Homo sapiens with 16 samples.

Results

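The nuclear pore and nuclear transport genes described here are 43 genes of 19775 measured, 30 that encode components of the pore and 13 that encode transport factors. They were taken from a list of names chosen with earlier results of these data known. Each was kept because the platform annotation held a probe set with that gene symbol alone. Where a gene had several such probe sets, the one with the highest mean log2 intensity over the 16 arrays stood for it, so the members' levels helped to choose the probe sets, while their changes with treatment did not. All 43 passed the filter on dim genes and none had a group mean below the dim level (an intensity of 29.5, the median of all deposited values). The arrays measured bulk RNA from 4 established human lines of T-cell acute lymphoblastic leukaemia (T-ALL), CEM, CUTL1, DND41 and Jurkat. Each line was treated for 15 h with 1 uM PD-0332991 (palbociclib, an inhibitor of the cell cycle kinases CDK4 and CDK6) or with DMSO, the vehicle, with 2 Affymetrix U133 Plus 2.0 arrays in each of the 8 groups. Nothing in the labels says whether the replicates of a group were separate cultures, and the p-values therefore cover the spread of these arrays alone, which may be technical. Array medians lay between 28.5 and 31.2 intensity units and replicates correlated across genes at r of 0.993 to 0.998. All 10 T cell markers listed were above the dim level, with summed intensities of 30740 to 45635 in PD-0332991 groups and 26471 to 39534 in DMSO groups. Of the 10, 9 rose in the average effect, against 26.7% of all genes tested. Markers of other cell types above the dim level in at least 1 group were 1 of 5 myeloid, 2 of 4 measured B cell, 3 of 4 NK, 3 of 4 epithelial, 3 of 4 fibroblast and endothelial and the 1 measured erythroid marker. Their summed intensities were 91.1 to 107 with PD-0332991 and 89.4 to 105 with DMSO (myeloid), 261 to 2226 with PD-0332991 and 256 to 1558 with DMSO (B cell) and 333 to 636 with PD-0332991 and 323 to 587 with DMSO (NK). They were 91.8 to 130 with PD-0332991 and 82.3 to 167 with DMSO (epithelial), 296 to 2027 with PD-0332991 and 266 to 1580 with DMSO (fibroblast and endothelial) and 24.4 to 42.2 with PD-0332991 and 19.9 to 28.4 with DMSO (erythroid). Among them CD79A (0.25), PECAM1 (0.35) and ALAS2 (0.25) rose. What the marker changes contribute to the results below was not tested.

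The nuclear pore is a channel through the nuclear envelope built of repeated protein subcomplexes. Outer and inner rings form its scaffold, membrane proteins anchor it, disordered proteins rich in phenylalanine and glycine fill its centre, and filaments and a basket extend into the cytoplasm and the nucleus. Importins and exportins carry proteins through it, with direction set by the GTPase Ran, and dividing cells must build new pores as their nuclei grow. NUP98 and NUP214 are also known in leukaemia as partners in oncogenic gene fusions.

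Most of these genes were lower after PD-0332991. In the average of the 4 lines 35 of 43 fell at a limma adjusted p under 0.05, against 20.0% of all genes tested, 2 rose (RANBP2 and NUP98), against 26.7%, and 6 were not called (n = 8 arrays per treatment). The median change of the members was -0.27 on the log2 scale, beside 0.04 for all 13483 genes tested. As the list was chosen with earlier results of these data known, its shares here and below describe it and are not independent support. Most single changes were modest. NUP155 alone fell by at least 2-fold, followed by NUP85 at 1.99-fold. In bulk RNA, fewer cells of a type and less RNA per cell cannot be told apart.

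Each line showed this pattern on its own. In CEM 21 members fell and 2 rose, against 11.6% and 16.5% of all genes, with a member median of -0.27. In CUTL1 24 fell and 0 rose, against 12.7% and 14.6%, with a median of -0.28. In DND41 23 fell and 1 rose, against 17.1% and 11.1%, with a median of -0.26, and in Jurkat 26 fell and 1 rose, against 11.4% and 15.6%, with a median of -0.33. Leaving out any 1 array kept 33 of the 35 falls in the average, 15 of 21 in CEM, 17 of 24 in CUTL1, 16 of 23 in DND41 and 20 of 26 in Jurkat. The change was negative in all 4 lines for 35 members, against 17.7% of genes. A positive change in all 4 lines was seen for 1 member, RANBP2, against 22.5% of genes. For 28 members both PD-0332991 arrays lay below both DMSO arrays in all 4 lines, where 10.7% of genes did so, and for RANBP2 both lay above in all 4 (10.7% of genes).

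A set of 16 members fell in each of the 4 lines separately, where 5.65% of genes did. They were the outer ring genes NUP107, NUP85, NUP37 and NUP43, the inner ring genes NUP93, NUP155, NUP205 and NUP35, the membrane gene NDC1, the channel gene NUP62, the basket gene NUP153, the import receptors KPNB1, IPO5 and IPO9, and the exportins XPO1 and CSE1L. The cytoplasmic face, the importin alpha genes and RAN had no member in this set. With any 1 array left out 9 of the 16 were still called in all 4 lines: NUP107, NUP85, NUP37, NUP43, NUP155, NUP205, NDC1, NUP62 and CSE1L. With the probe sets used, AHCTF1 and GLE1 fell in the average without being called in any single line.

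**Figure D1:**
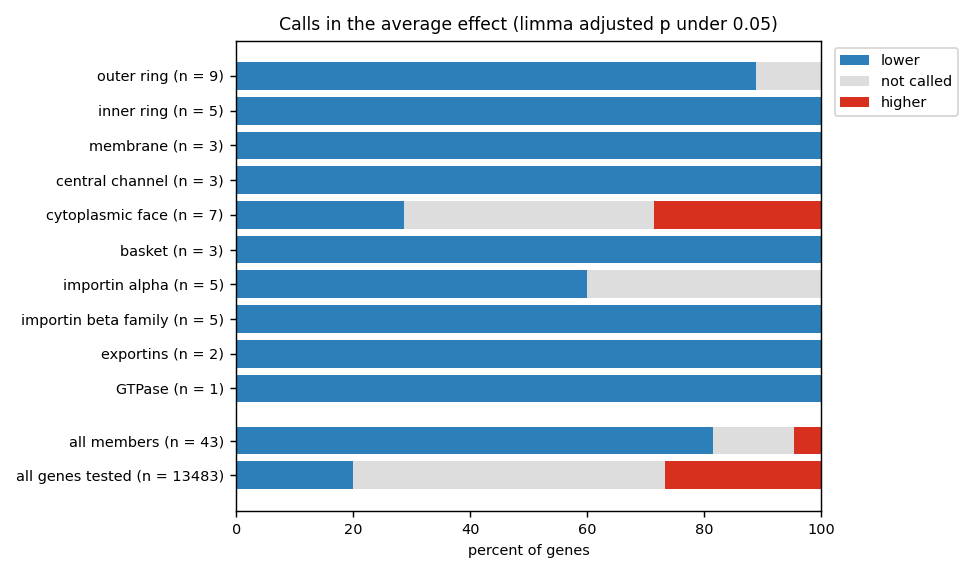
Percent of genes called lower (blue), not called (grey) or called higher (red) in the average of 4 lines, PD-0332991 minus DMSO, for the 10 role groups, for all 43 members and for the 13483 genes tested. All members of the inner ring, membrane, channel, basket, importin beta and exportin groups were lower, and both higher calls (RANBP2 and NUP98) lie in the group drawn as cytoplasmic face, in which NUP98 is counted.

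By role, the share that fell was 8 of 9 in the outer ring, 5 of 5 in the inner ring, 3 of 3 each for the membrane, central channel and basket groups, 5 of 5 in the importin beta family and 2 of 2 exportins. It was 3 of 5 for importin alpha and 2 of 7 for the cytoplasmic face. The median change was -0.63 in the central channel, -0.58 in the inner ring, -0.50 for the exportins, -0.40 for the membrane group, -0.37 in the outer ring, -0.35 in the importin beta family, -0.25 in the basket, -0.16 for importin alpha and -0.08 for the cytoplasmic face. Outside the cytoplasmic face 33 of 36 members fell and 0 rose, with a median of -0.33. Of all genes tested 20.0% fell and 26.7% rose. NUP98 was counted with the cytoplasmic face as the partner of RAE1, but its products also lie elsewhere in the pore. With NUP98 outside it, a count added after seeing the data, 2 of 6 cytoplasmic face members fell and 1 rose, and 33 of the other 37 fell and 1 rose. These are counts and medians of unequal groups, and the differences between groups were not tested.

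**Figure D2:**
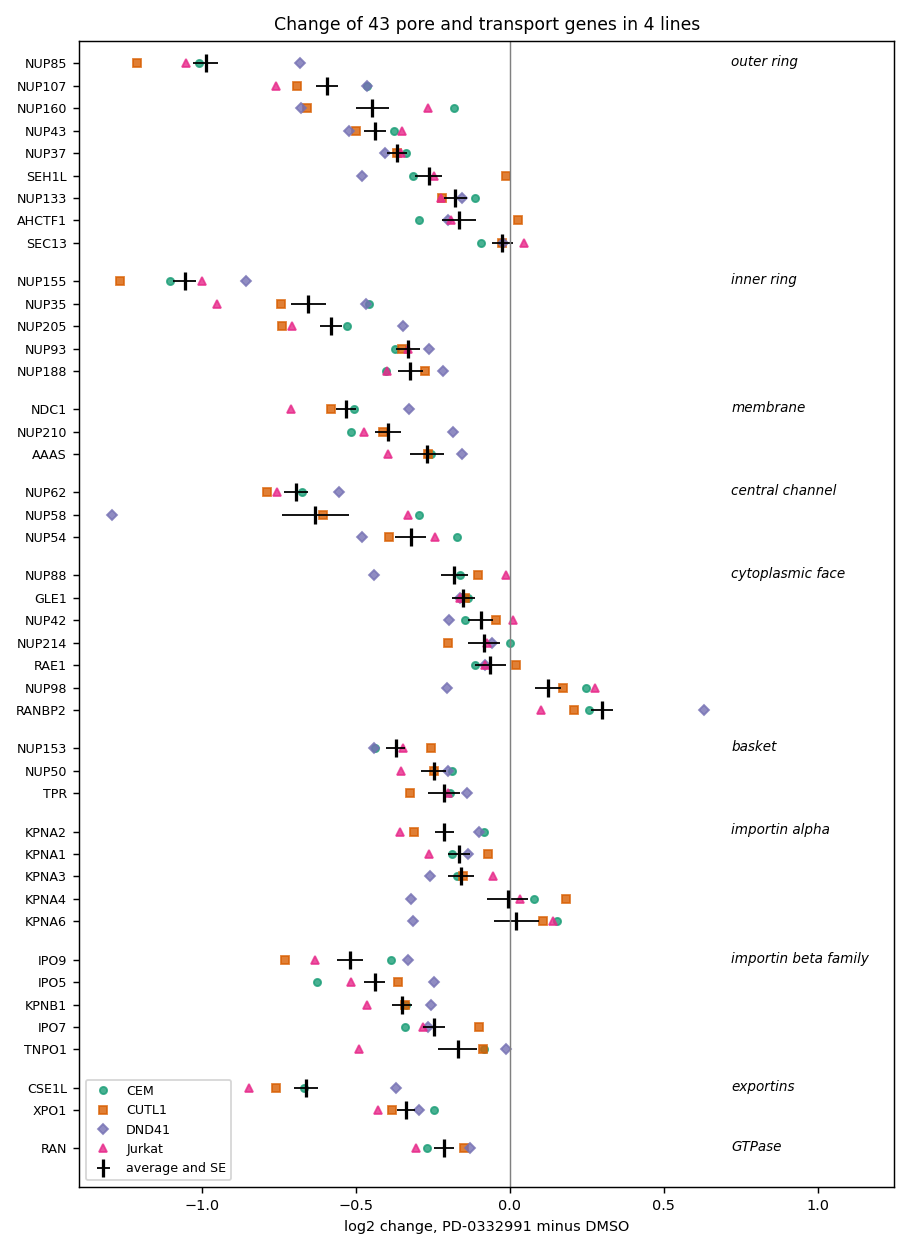
Log2 change, PD-0332991 minus DMSO, of each of the 43 genes in CEM, CUTL1, DND41 and Jurkat (coloured points, n = 2 arrays per treatment) and their average with its SE (black), grouped by role. NUP155 and NUP85 lie farthest to the left, RANBP2 lies to the right of 0 in all 4 lines, and the DND41 points of NUP58, NUP98, KPNA4 and KPNA6 lie apart from those of the other lines.

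Promoter sequence is shown for 5 members: NUP155 and NUP85, which fell most, NDC1 and CSE1L, which fell and hold a pair of cell cycle words each, and RANBP2, which rose. The sequences are from RefSeq (GRCh38.p14), 5′ to 3′ on the strand of the gene, from 250 bases before the annotated start to 30 bases after it. Capitals mark a word of the E2F consensus (TTTGGCGC, TTTGCCGC, TTTCGCGC or TTTCCCGC) or of the cell cycle genes homology region, CHR (TTTGAA or TTCGAA), on either strand. They lie at chr5:37371077-37371356 on the minus strand (NUP155), chr17:75205429-75205708 on the plus strand (NUP85), chr1:53838267-53838546 on the minus strand (NDC1), chr20:49046062-49046341 on the plus strand (CSE1L) and chr2:108719232-108719511 on the plus strand (RANBP2).
NUP155: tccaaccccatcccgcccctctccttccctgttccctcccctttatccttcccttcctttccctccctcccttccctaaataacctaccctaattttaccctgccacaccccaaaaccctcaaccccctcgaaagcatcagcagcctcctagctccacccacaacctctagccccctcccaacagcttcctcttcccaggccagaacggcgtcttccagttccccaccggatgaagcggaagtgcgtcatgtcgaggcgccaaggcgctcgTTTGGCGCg
NUP85: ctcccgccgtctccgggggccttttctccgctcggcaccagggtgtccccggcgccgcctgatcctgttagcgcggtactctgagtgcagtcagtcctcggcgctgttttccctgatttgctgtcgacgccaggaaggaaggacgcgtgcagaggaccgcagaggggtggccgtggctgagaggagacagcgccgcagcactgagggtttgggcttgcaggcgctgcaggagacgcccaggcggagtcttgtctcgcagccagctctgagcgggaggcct
NDC1: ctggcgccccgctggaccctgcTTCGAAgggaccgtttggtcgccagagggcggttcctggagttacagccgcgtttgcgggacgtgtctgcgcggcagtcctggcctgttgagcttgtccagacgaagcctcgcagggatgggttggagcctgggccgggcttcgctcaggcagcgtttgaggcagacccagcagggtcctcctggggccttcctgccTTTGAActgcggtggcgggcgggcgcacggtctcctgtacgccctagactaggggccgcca
CSE1L: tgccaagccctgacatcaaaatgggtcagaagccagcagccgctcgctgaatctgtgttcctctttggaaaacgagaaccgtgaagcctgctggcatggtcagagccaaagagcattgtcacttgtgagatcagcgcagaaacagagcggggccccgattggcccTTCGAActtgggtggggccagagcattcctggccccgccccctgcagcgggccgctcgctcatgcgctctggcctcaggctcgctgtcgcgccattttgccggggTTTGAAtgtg
RANBP2: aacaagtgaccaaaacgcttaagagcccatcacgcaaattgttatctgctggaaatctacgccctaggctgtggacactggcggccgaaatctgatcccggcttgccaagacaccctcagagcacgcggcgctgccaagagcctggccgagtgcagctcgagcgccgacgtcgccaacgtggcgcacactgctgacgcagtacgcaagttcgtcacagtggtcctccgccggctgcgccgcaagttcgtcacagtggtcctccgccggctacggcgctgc
The NUP155 window holds TTTGGCGC, whose first base is base 22 counted from the start. NDC1 holds TTCGAA 228 bases and TTTGAA 31 bases before the start. CSE1L holds TTCGAA 85 bases before the start and TTTGAA at base 21. NUP85 and RANBP2 hold neither motif. Not shown are KPNA2 (-0.21), which holds 2 CHR words, and IPO7 (-0.25), which holds 1 E2F and 1 CHR word, though both also fell.

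The table of promoters held 38 of the 43 members; NUP43, AHCTF1, GLE1, KPNA4 and KPNB1 had no entry. In windows reaching 50 bases past the start, an E2F word stood in 2 of 38 members, NUP155 and IPO7 (5.26%), and in 703 of 15843 protein coding genes (4.44%). A CHR word stood in 10 of 38 members (26.3%) and in 2135 of 15843 protein coding genes (13.5%). The 10 were NUP37, NUP205, NUP35, NDC1, NUP98, NUP153, KPNA2, IPO7, CSE1L and RAN, of which 9 fell and NUP98 rose, with a median change of -0.37. Of the 28 without a CHR word 22 fell and 1 rose, with a median of -0.27. No E2F word overlapped a CHR word in these members. A match is a run of letters, not a binding site, and absence says only that the letters are not in the window.

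The outer ring, or Y complex, is the scaffold that coats both faces of the pore. NUP85, one of its core subunits, changed most of the 9. In CEM NUP85 had intensities of 748 and 734 with PD-0332991, against 1560 and 1431 with DMSO, and in CUTL1 488 and 516 with PD-0332991, against 1133 and 1196 with DMSO. The DND41 arrays read 803 and 838 with PD-0332991, against 1300 and 1332 with DMSO, and in Jurkat 599 and 609 with PD-0332991, against 1364 and 1151 with DMSO. No PD-0332991 array reached any DMSO array of its line, and the gap was smallest in DND41. The average change was -0.99 (SE 0.04, limma adjusted p 4.03e-09), with -1.01 in CEM, -1.21 in CUTL1, -0.68 in DND41 and -1.05 in Jurkat.

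The other scaffold subunits of the Y complex fell less. NUP107 changed by -0.60, NUP160 by -0.45, NUP43 by -0.44, NUP37 by -0.37, SEH1L by -0.26 and NUP133 by -0.18 on average. SEH1L, which also serves in the GATOR complexes of nutrient sensing, stood at -0.01 in CUTL1 (adjusted p 0.939) and at -0.48 in DND41. AHCTF1 (ELYS), which seeds new pores on chromatin, fell by 0.17 (limma adjusted p 0.0256), a call lost in 7 of the 16 fits that leave out an array (adjusted p 0.0519 to 0.0602). The arrays concerned were CEM DMSO 2, CEM PD-0332991 1, CUTL1 PD-0332991 1, DND41 DMSO 1, DND41 PD-0332991 1, Jurkat DMSO 1 and Jurkat PD-0332991 1. The other AHCTF1 probe set fell by 0.44 on average (limma adjusted p 1.85e-05 over all probe sets with 1 symbol). That probe set changed by -0.32 in CEM, -0.25 in CUTL1, -0.69 in DND41 and -0.49 in Jurkat. SEC13, which doubles as a subunit of the COPII vesicle coat, was the exception at -0.02 (adjusted p 0.615). Its lines lay between -0.10 in CEM and 0.05 in Jurkat.

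The inner ring joins the rings to the membrane and to the central channel. NUP155, which contacts the membrane, fell more than any other member. In CEM NUP155 had intensities of 267 and 260 with PD-0332991, against 577 and 557 with DMSO, and in CUTL1 231 and 228 with PD-0332991, against 522 and 585 with DMSO. The DND41 intensities were 251 and 277 with PD-0332991, against 484 and 471 with DMSO, and in Jurkat 211 and 225 with PD-0332991, against 438 and 433 with DMSO. All 8 PD-0332991 arrays lay below all 8 DMSO arrays, whatever the line. The average change was -1.06 (SE 0.04, 2.08-fold lower, limma adjusted p 7.60e-10), with -1.27 in CUTL1 and -0.86 in DND41 as the ends of the range. NUP35, which binds NUP155 and the membrane, changed by -0.66, and the large scaffold proteins NUP205 and NUP188 by -0.58 and -0.32. NUP93, which ties the ring to the channel, changed by -0.33. All 5 inner ring genes had separate arrays in all 4 lines.

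Among the membrane group, NDC1 encodes a transmembrane protein needed for pore assembly. NDC1 had intensities of 1283 and 1203 with PD-0332991 in CEM, against 1706 and 1824 with DMSO, and of 1005 and 972 with PD-0332991 in CUTL1, against 1464 and 1495 with DMSO. In DND41 it had 1524 and 1530 with PD-0332991, against 1960 and 1875 with DMSO, and in Jurkat 955 and 965 with PD-0332991, against 1537 and 1610 with DMSO. Treatments were separate in every line, with the widest gap in Jurkat. The average change was -0.53 (SE 0.03, 1.45-fold lower, limma adjusted p 1.02e-07). NUP210, a large membrane glycoprotein of the pore, changed by -0.40, and AAAS (aladin), which NDC1 anchors, by -0.27.

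The central channel trimer of NUP62, NUP58 and NUP54 forms part of the permeability barrier. In CEM NUP62 had intensities of 1157 and 1181 with PD-0332991, against 1922 and 1819 with DMSO, and in CUTL1 1123 and 1123 with PD-0332991, against 1846 and 2045 with DMSO. The DND41 arrays read 1153 and 1262 with PD-0332991, against 1844 and 1708 with DMSO, and in Jurkat 1134 and 1031 with PD-0332991, against 1806 and 1851 with DMSO. NUP62 was close to uniform across lines, with all 8 PD-0332991 arrays below all 8 DMSO arrays. It changed by -0.70 (SE 0.04, 1.62-fold lower, limma adjusted p 5.93e-08). NUP54 changed by -0.32, a call lost with the mean of all its probe sets (limma adjusted p 0.121). NUP58 changed by -0.63 with an SE of 0.11, the widest of the 43, and its values were therefore looked at in every array, after the changes were seen. In DND41 NUP58 had 182 and 207 with PD-0332991, against 482 and 471 with DMSO. In CEM it had 405 and 258 with PD-0332991, against 385 and 409 with DMSO, and in Jurkat 322 and 327 with PD-0332991, against 315 and 530 with DMSO. In CUTL1 it had 392 and 380 with PD-0332991, against 595 and 581 with DMSO. The treatments were separate in DND41 and CUTL1 and overlapped in CEM and Jurkat. NUP58 fell in DND41 (-1.29), while CUTL1 (-0.61, adjusted p 0.0615), CEM (-0.30) and Jurkat (-0.33) were not called, and the adjusted p of the difference between lines was 0.109. In Jurkat the 3 other NUP58 probe sets stood at -0.74, -0.50 and -0.93. In DND41 the same probe sets, in that order, stood at -1.25, -0.60 and -0.27. The last of them fell less in DND41 than in CEM (-0.61), CUTL1 (-0.36) or Jurkat. The others fell most in DND41, but only the first by about as much as the one used.

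Of the 7 genes counted with the cytoplasmic face 2 fell and 2 rose, beside 20.0% and 26.7% of all genes tested, so their shares lay near the background. The group includes the NUP214 and NUP88 complex, the filament protein RANBP2 (NUP358), which binds Ran and acts as a SUMO ligase, and the messenger RNA export factors NUP42, GLE1 and RAE1, with NUP98 as the partner of RAE1. NUP88 and GLE1 fell by 0.18 and 0.15, and both calls were lost with the mean difference of each line as 1 replicate. The NUP88 call was also lost with the mean of all its probe sets and without DND41, its only called line (-0.44). NUP214 (-0.08), NUP42 (-0.10) and RAE1 (-0.06) were not called, with adjusted p-values of 0.203, 0.0756 and 0.338.

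RANBP2 was the only member higher in all 4 lines. In CEM RANBP2 had intensities of 581 and 576 with PD-0332991, against 501 and 468 with DMSO, and in CUTL1 3950 and 4129 with PD-0332991, against 3726 and 3280 with DMSO. The DND41 intensities were 3260 and 3168 with PD-0332991, against 2078 and 2075 with DMSO, and in Jurkat 1440 and 1441 with PD-0332991, against 1370 and 1316 with DMSO. The arrays were separate in every line, with a wide gap in DND41 and a narrow one in Jurkat. The average change was 0.30 (SE 0.04, 1.23-fold higher, limma adjusted p 3.25e-05). RANBP2 rose in CEM (0.26, adjusted p 0.0213) and DND41 (0.63, adjusted p 9.93e-05), while CUTL1 (0.21, adjusted p 0.0528) and Jurkat (0.10, adjusted p 0.349) were not called. The CEM call was lost without CEM DMSO 2 or either CEM PD-0332991 array (adjusted p 0.0705 to 0.141).

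NUP98, which makes a precursor cut into the protein NUP98, found on both faces of the pore, and the outer ring protein NUP96, went different ways in different lines. NUP98 had intensities of 1500 and 1280 with PD-0332991 in CEM, against 1188 and 1145 with DMSO, and of 956 and 991 with PD-0332991 in CUTL1, against 826 and 903 with DMSO. In DND41 it had 1418 and 1422 with PD-0332991, against 1638 and 1634 with DMSO, and in Jurkat 1646 and 1554 with PD-0332991, against 1269 and 1373 with DMSO. Both PD-0332991 arrays lay above both DMSO arrays in CEM, CUTL1 and Jurkat and below them in DND41. The average change of 0.12 (SE 0.04, limma adjusted p 0.0308) was lost in 8 of the 16 fits that leave out an array (adjusted p 0.0559 to 0.0751): those without CEM DMSO 2, CEM PD-0332991 1, CUTL1 DMSO 1, CUTL1 PD-0332991 2, either DND41 DMSO array, Jurkat DMSO 1 or Jurkat PD-0332991 1. It was also lost with arrays centred on their medians and turned to -0.02 when all NUP98 probe sets were averaged. NUP98 rose in CEM (0.25), a call kept in 5 of the 16 fits, and in Jurkat (0.28), a call lost without Jurkat DMSO 1 or either Jurkat PD-0332991 array (adjusted p up to 0.176). It stood at 0.17 in CUTL1 without a call and at -0.20 in DND41 without a call.

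**Figure D3:**
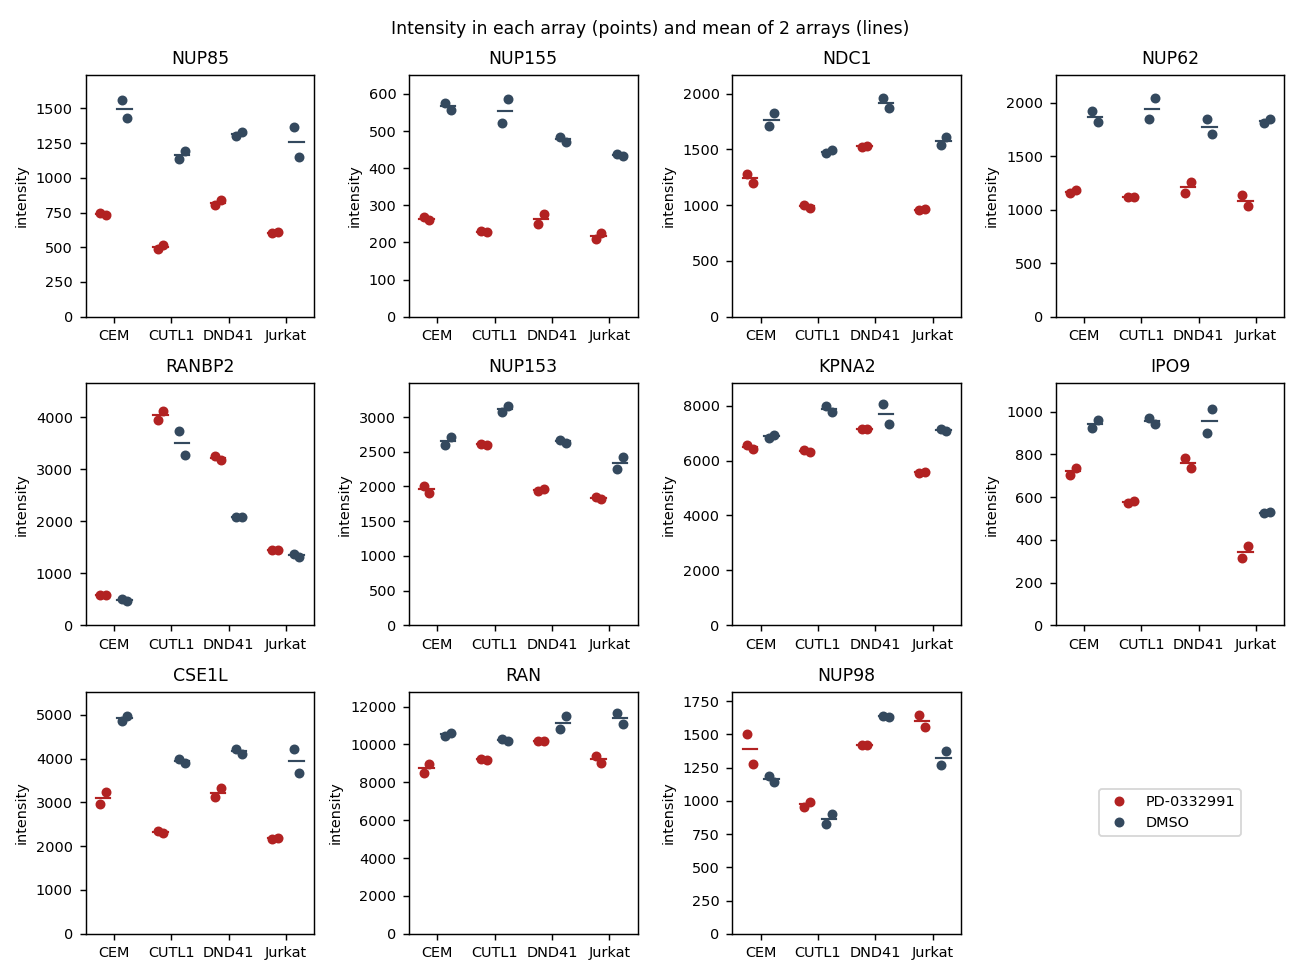
Intensity of 11 of the members in each array (points) with the mean of 2 arrays (lines), PD-0332991 in red to the left of DMSO in dark blue for each line, on axes that start at 0. The points of NUP85, NUP155, NUP62 and CSE1L separate by treatment across all lines, and RANBP2 differs between lines by more than between treatments.

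The nuclear basket reaches into the nucleus and is a docking place for transport complexes. In CEM NUP153 had intensities of 2004 and 1910 with PD-0332991, against 2603 and 2706 with DMSO, and in CUTL1 2609 and 2604 with PD-0332991, against 3068 and 3164 with DMSO. The DND41 arrays read 1937 and 1969 with PD-0332991, against 2675 and 2633 with DMSO, and in Jurkat 1853 and 1819 with PD-0332991, against 2256 and 2422 with DMSO. The treatments were separate in each line, and NUP153 changed by -0.37 (SE 0.03, 1.29-fold lower, limma adjusted p 1.59e-06). NUP50, a mobile partner of NUP153 in import, changed by -0.25. TPR, the coiled-coil protein of the basket filaments, changed by -0.22, and both had separate arrays in all 4 lines.

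Importin alpha proteins are adaptors that read the classical nuclear localisation signal. KPNA2, the form abundant in dividing cells, had intensities of 6558 and 6440 with PD-0332991 in CEM, against 6825 and 6950 with DMSO, and of 6386 and 6309 with PD-0332991 in CUTL1, against 7980 and 7788 with DMSO. The DND41 intensities were 7157 and 7160 with PD-0332991, against 8048 and 7336 with DMSO, and in Jurkat 5564 and 5577 with PD-0332991, against 7168 and 7096 with DMSO. Arrays were separate in all 4 lines but close together in CEM and DND41. KPNA2 changed by -0.21 on average (SE 0.03, 1.16-fold lower, limma adjusted p 1.34e-04) and was called in CUTL1 (-0.31) and Jurkat (-0.36). The adaptors KPNA1 and KPNA3 fell by 0.17 and 0.16. KPNA4 (-0.01) and KPNA6 (0.02) were not called, and both stood lower in DND41 (-0.32 and -0.31) than in the other lines without a call there. The DND41 arrays with PD-0332991 lay apart for both genes, with log2 SDs of 0.26 for KPNA4 and 0.39 for KPNA6. For KPNA6 the treatments overlapped in DND41.

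The importin beta family binds cargo, or importin alpha, directly. IPO9, an import receptor for histones, had intensities of 705 and 735 with PD-0332991 in CEM, against 924 and 959 with DMSO, and of 570 and 583 with PD-0332991 in CUTL1, against 972 and 941 with DMSO. In DND41 it had 783 and 736 with PD-0332991, against 898 and 1015 with DMSO, and in Jurkat 313 and 369 with PD-0332991, against 526 and 528 with DMSO. Every line showed separate arrays, and the average change was -0.52 (SE 0.04, 1.43-fold lower, limma adjusted p 1.60e-06). IPO5, an import receptor for histones and ribosomal proteins, changed by -0.44, KPNB1, the importin beta that pairs with importin alpha, by -0.35, and IPO7 by -0.25. TNPO1 (transportin), which imports RNA-binding proteins, changed by -0.17 (limma adjusted p 0.0466). In Jurkat TNPO1 stood at -0.49, a call lost without any 1 of the 4 Jurkat arrays (adjusted p 0.0520 to 0.0858), and the other lines were not called. The 6 other bright TNPO1 probe sets ranged from -0.59 to -0.05 in Jurkat and from -0.48 to 0.04 in DND41. The average call was kept only without CUTL1 DMSO 1 or DND41 PD-0332991 1 and lost in the other 14 fits that leave out an array (adjusted p 0.0527 to 0.103).

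The exportins fell together. CSE1L returns importin alpha to the cytoplasm, and XPO1 (CRM1) exports proteins with a leucine-rich signal. In CEM CSE1L had intensities of 2965 and 3226 with PD-0332991, against 4866 and 4978 with DMSO, and in CUTL1 2349 and 2303 with PD-0332991, against 3989 and 3888 with DMSO. The DND41 arrays read 3122 and 3322 with PD-0332991, against 4219 and 4114 with DMSO, and in Jurkat 2169 and 2193 with PD-0332991, against 4215 and 3662 with DMSO. The arrays were separate in all 4 lines, least widely in DND41. CSE1L changed by -0.66 (SE 0.04, 1.58-fold lower, limma adjusted p 6.70e-08) and XPO1 by -0.34.

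RAN, the GTPase that loads and unloads these receptors, changed less. RAN had intensities of 8492 and 8991 with PD-0332991 in CEM, against 10470 and 10613 with DMSO, and of 9236 and 9195 with PD-0332991 in CUTL1, against 10281 and 10178 with DMSO. The DND41 intensities were 10160 and 10186 with PD-0332991, against 10812 and 11480 with DMSO, and in Jurkat 9384 and 9033 with PD-0332991, against 11684 and 11087 with DMSO. RAN arrays did not overlap between treatments within any line. The change was -0.21 on average (SE 0.03, 1.16-fold lower, limma adjusted p 1.47e-04), called in CEM (-0.27) and Jurkat (-0.31), the CEM call being lost without CEM PD-0332991 1 (adjusted p 0.0703).

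Whether the lines responded alike was tested by the difference of the PD-0332991 effect between the 4 lines (limma, F on 3 degrees of freedom). It was called for 4 members (9.30%), against 12.6% of all genes, a share close to the background. They were RANBP2 (adjusted p 0.0240), CSE1L (0.0474), NUP85 (0.0495) and NUP98 (0.0499). When 1 array at a time was left out, RANBP2 was called in 11 of 16 fits, NUP98 in 3, and CSE1L and NUP85 in 2 each. The count was 0 without DND41 DMSO 1, DND41 DMSO 2, DND41 PD-0332991 1, Jurkat PD-0332991 1 or Jurkat PD-0332991 2, and 8 without Jurkat DMSO 2.

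Between pairs of lines, all 14 calls of a difference in effect involved DND41. CEM and DND41 differed in 3 members (RANBP2, NUP98 and IPO5), against 9.31% of genes. The IPO5 probe set used changed by -0.63 in CEM and -0.25 in DND41. The other IPO5 probe sets changed by -0.53, -0.53, -0.26 and -0.08 in CEM and by -0.16, -0.63, -0.61 and -0.64 in DND41. Only the first of these went with the one used. CUTL1 and DND41 differed in 5 (NUP85, SEH1L, NUP155, NUP205 and RANBP2), against 7.15%. DND41 and Jurkat differed in 6 (NUP205, NDC1, NUP88, RANBP2, NUP98 and CSE1L), against 9.52%. With the mean of all its probe sets the NUP88 fall in DND41 was not seen. The other 3 pairs had 0 members called, against 5.14% of genes for CEM and CUTL1, 1.97% for CEM and Jurkat and 2.55% for CUTL1 and Jurkat.

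For RANBP2 the effect with the probe set used was larger in DND41 by 0.53 than in Jurkat (SE 0.10, limma adjusted p 0.0119). The change of NUP98 was lower in DND41 than in Jurkat by 0.48 (SE 0.12, limma adjusted p 0.0311). With the probe set used, the CSE1L fall was smaller in DND41 than in Jurkat by 0.48 (SE 0.11, limma adjusted p 0.0239). In the other CSE1L probe sets the changes in DND41 and Jurkat were -0.70 and -0.45, -0.42 and -0.96, and -0.40 and -0.55. The NUP85 fall was smaller in DND41 than in CUTL1 by 0.53 (SE 0.12, limma adjusted p 0.0233). As a description across the 43 members, the changes in 2 lines correlated at r of 0.882 for CEM and Jurkat, 0.854 for CEM and CUTL1 and 0.891 for CUTL1 and Jurkat. With DND41 r was 0.549 for CEM, 0.635 for CUTL1 and 0.444 for Jurkat. Across all genes tested the same pairs gave 0.771, 0.692 and 0.757, and with DND41 0.472, 0.646 and 0.529.

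DND41 held the lowest change of the 4 lines for 14 members and the highest for 18, so its members were not shifted one way. The 18S ribosomal RNA probe sets averaged 12.45 and 12.75 on the log2 scale in the DND41 arrays with PD-0332991 and 13.21 and 13.26 with DMSO. In CUTL1 they averaged 12.80 and 12.67 with PD-0332991 and 13.28 and 13.17 with DMSO. In CEM they averaged 13.21 and 13.08 with PD-0332991 and 13.25 and 12.56 with DMSO, and in Jurkat 13.56 and 13.30 with PD-0332991 and 13.48 and 13.29 with DMSO. The treatments were thus separate in DND41 and CUTL1 and overlapped in CEM and Jurkat, where CEM DMSO 2 was the lowest CEM array. The part of this in the members' changes was not tested.

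Levels with DMSO differed between lines for 31 of 43 members (72.1%, limma F, adjusted p under 0.05), close to the 71.2% of all genes. Between pairs of lines the count of members that differed was 21 for CEM and CUTL1, against 43.4% of genes, 17 for CEM and DND41, against 45.7%, and 16 for CEM and Jurkat, against 48.1%. It was 17 for CUTL1 and DND41, against 44.1%, 23 for CUTL1 and Jurkat, against 49.5%, and 16 for DND41 and Jurkat, against 46.9%. RANBP2 had by far the widest range, with log2 means of 11.77 in CUTL1, 11.02 in DND41, 10.39 in Jurkat and 8.92 in CEM, a 7.22-fold span in which all neighbours differed (adjusted p 1.99e-05 or less). NUP210 spanned 1.24 on the log2 scale, highest in CUTL1 and lowest in CEM, and KPNA1 also spanned 1.24, highest in DND41 and lowest in CUTL1. IPO7 spanned 1.07, highest in DND41 and lowest in Jurkat, and NUP98 0.92. At the other end TNPO1, KPNB1 and NUP62 spanned 0.08, 0.11 and 0.13.

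Several probe sets often read one gene, and 36 of the 43 members had more than 1. The members had 133 in all, of which 90 were not the one used, and 74 of these reached the dim level. Of the 74, 68 had an average change of the same sign as the one used. NUP62 was lower by 0.85 in its other bright probe set and NDC1 by 0.76. The CSE1L probe sets lay between -0.44 and -0.77.

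**Figure D4:**
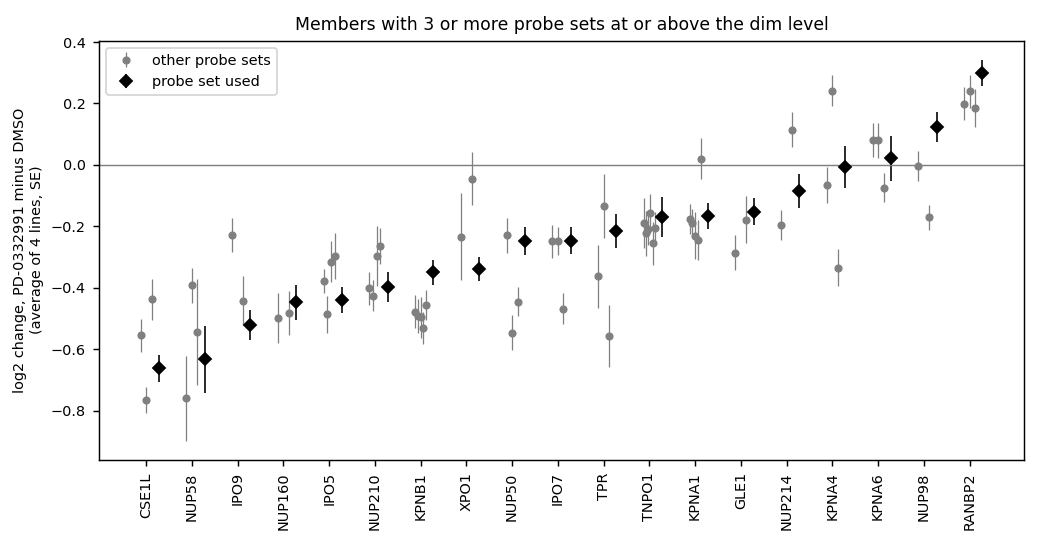
Average log2 change, PD-0332991 minus DMSO, with its SE, for every probe set at or above the dim level in the 19 members with at least 3 of them. The probe set used for a gene is black and the others are grey. All RANBP2 probe sets lie above 0, while those of KPNA4 and NUP98 lie on both sides.

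A single probe set was called in the direction opposite to a called one used. It belongs to NUP98 and changed by -0.17, beside 0.12 for the one used. KPNA4 likewise had a probe set at 0.24 and one at -0.33 around the -0.01 of the one used. KPNA2 had one other, which stood at -0.09 on average (adjusted p 0.508). It changed by 0.41 in CEM, -0.33 in CUTL1, -0.47 in DND41 and 0.02 in Jurkat, so the fall called in Jurkat was not seen in it.

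RANBP2 needs care, since the genome holds near-identical RGPD copies of it and the probe set used may read them too. The 3 other RANBP2 probe sets rose by 0.24, 0.20 and 0.19 on average (limma adjusted p 0.00466, 0.0169 and 0.0447 over all probe sets with 1 symbol). In DND41 they changed by 0.46, 0.02 and 0.19, beside 0.63 for the one used. The probe sets at 0.02 and 0.19 did not rise more in DND41 than in Jurkat, while the one at 0.46 and the one used did. Their DMSO levels spanned 0.42, 0.99 and 0.68 between lines, beside 2.85 for the one used. The rise on average was thus present in all 4 probe sets, and the wide difference between lines with DMSO was in 1.

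**Figure D5:**
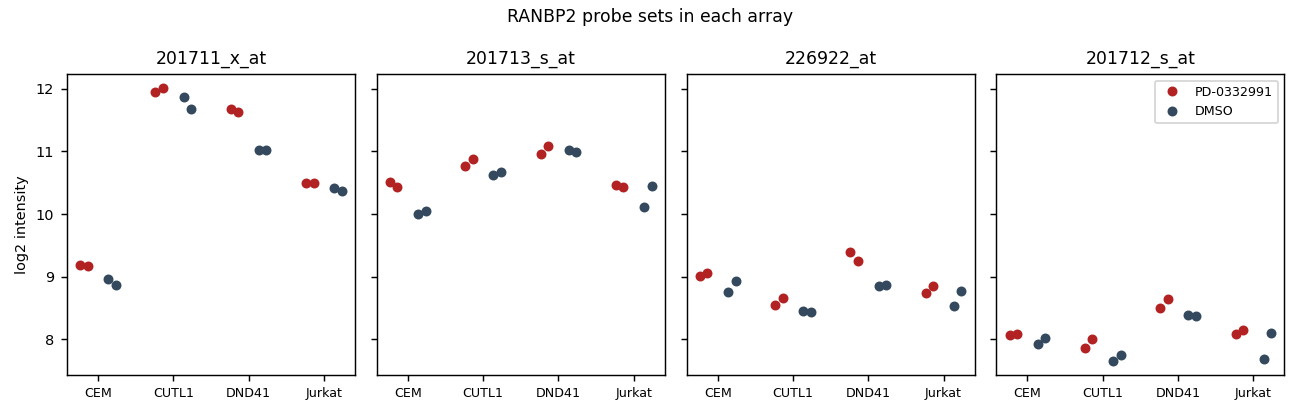
Log2 intensity of the 4 RANBP2 probe sets in each array, PD-0332991 in red to the left of DMSO in dark blue. The probe set used, in the first panel, spans 2.85 between lines with DMSO, and the others span 0.42 to 0.99.

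Other genes of the pathway were counted from 3 further lists, against the same 20.0% of all genes that fell and 26.7% that rose. How these lists differ from the members was not tested. Of 20 tested genes among 27 further pore and transport genes 11 fell and 3 rose, with a median of -0.10. RANBP1 and RCC1, the cofactor and the exchange factor of Ran, changed by -0.77 (SE 0.04, limma adjusted p 7.50e-09) and -0.59, and SENP1, a SUMO protease found at pores, by -0.61. The 3 that rose were KPNA5 (0.29), IPO13 (0.18) and TNPO2 (0.16), named after their values were seen.

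Of 17 tested messenger RNA export genes 9 fell and 1 rose, with a median of -0.09. The helicase gene DDX39A and the export adaptor gene ALYREF both changed by -0.65, and THOC1 of the THO complex by -0.46, while CHTOP, named after its value was seen, rose by 0.11. Of 18 genes of the lamina and envelope 9 fell and 3 rose, with a median of -0.12. NEMP1, an inner nuclear membrane protein, changed by -1.19 (SE 0.05, limma adjusted p 1.56e-09), TMPO, which encodes the lamina-associated LAP2 proteins, by -0.73, and LMNB1, which encodes lamin B1, by -0.71. TMEM43 (0.38), SUN2 (0.23) and SYNE1 (0.13) rose, and were also named after their values were seen.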

How the data were processed

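The authors amplified 5 ng of total RNA with the Nugen Ovation V2 system and labelled the cDNA with biotin, per the labels' protocols. Per the submitters' processing notes the deposited intensity values were made with RMA; its version and the genome build were not given in the sources used here. They run from 4.42 to 26097 on a linear scale. Because log2 values had been assumed, log2 of the deposited intensity was taken first, with no pseudocount. Genes were named from the platform annotation, using 41097 of 54675 probe sets that had 1 symbol. Genes entered the tests if the 4 arrays of some line averaged 29.5 or more (4.88 on the log2 scale). A model of 8 group means was run in limma 3.58.1 under R 4.3.3 (lmFit, eBayes; 8 residual and 3.32 prior degrees of freedom). Two-sided p-values, adjusted over 13483 genes by Benjamini-Hochberg, were called under 0.05. Changes are PD-0332991 minus DMSO per line and averaged over lines. The fits were tested on simulated data. Figures used matplotlib 3.10.9 and pandas 2.3.3 under Python 3.11.15. The members, the lists and the tests were chosen with earlier results of these data known. Array values are given, by rule, for the largest average change in each role group, the 3 smallest p of the difference between lines and the members called higher; those of NUP58 were added after its values were seen. In each further list the 3 smallest p are named. Intensities of different probe sets are not compared. Alternatives covered scaling, the choice of probe set, the filter, an offset, the variance model, a replicate block, lines as replicates, and leaving out arrays or lines. The number of arrays limits the precision.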

Additional observations from a re-analysis of the deposited data

Results flagged for a closer look

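The effect of PD-0332991 differed between the 4 lines for 4 of 43 members (9.30%) by the limma F test, a smaller share than the 12.6% of all genes tested, and for 0 with a replicate block. For RANBP2 the adjusted p was 0.0240, with changes of 0.26 in CEM, 0.21 in CUTL1, 0.63 in DND41 and 0.10 in Jurkat. For CSE1L it was 0.0474, with -0.67 in CEM, -0.76 in CUTL1, -0.37 in DND41 and -0.85 in Jurkat. For NUP85 it was 0.0495, with -1.01 in CEM, -1.21 in CUTL1, -0.68 in DND41 and -1.05 in Jurkat. For NUP98 it was 0.0499, with 0.25 in CEM, 0.17 in CUTL1, -0.20 in DND41 and 0.28 in Jurkat. In each case DND41 lay at an end of the range with the probe set used. Over all alternatives the adjusted p ran from 0.00397 to 0.605 for RANBP2, from 0.00837 to 0.460 for CSE1L, from 0.0157 to 0.151 for NUP85 and from 0.0151 to 0.150 for NUP98. Groups held 2 arrays each, too few to look for a single array apart from the others.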

How the results depend on the processing

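Over 29 alternatives, 16 of which leave out 1 array, 1173 of 1237 average effects of single members kept their direction and call, 58 lost the call, 5 gained one and 1 reversed. The 35 members that fell numbered 23 (and 0 rose) with the mean difference of each line as 1 replicate, and 33 to 35 with 1 array left out. The 2 that rose became 1 with arrays centred on their medians, with the mean of all probe sets, without _x_at and _s_at probe sets, with no filter and without CUTL1, and were 1 to 2 with 1 array left out. In single lines, the 2 that rose in CEM became 1 with the mean of all probe sets or no filter, 0 without _x_at and _s_at probe sets, and 0 to 2 with 1 array left out. The 0 in CUTL1 became 1 with quantile normalization, a stricter filter, 16 units added or an intensity trend, and 0 to 1 with 1 array left out. The 1 in Jurkat became 0 when centred, with the mean of all probe sets, without _x_at and _s_at probe sets or with no filter, and 0 to 1 with 1 array left out. With 1 array left out, the falls numbered 18 to 23 in CEM, 18 to 24 in CUTL1, 17 to 24 in DND41 and 21 to 26 in Jurkat. The member median in DND41 was -0.34 when centred and -0.19 with quantile normalization. The 4 differences between lines became 2 when centred or with the mean of all probe sets, 0 without _x_at and _s_at probe sets, 1 with no filter, 9 with a stricter filter, 7 with 16 units added, 13 with an intensity trend, and 0 to 8 with 1 array left out. All these counts are of members only, without the share of all genes called under each alternative. They therefore do not show whether a shift in calls was particular to the members. With the mean of all probe sets NUP133, NUP54 and NUP88 lost their average calls, and without _x_at and _s_at probe sets TPR and KPNA2 did. Reversed values were KPNA2 in Jurkat at 0.020 without _x_at and _s_at probe sets, and, with the mean of all probe sets, NUP88 in DND41 at 0.016 and NUP98 on average at -0.017. The cause was not tested.

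The main fit did not pair arrays by replicate number. Whether the numbers mark pairs is not said in the labels, and the weak correlations here cannot settle it. Deviations of arrays with the same number correlated at 0.076 in CEM, 0.195 in CUTL1, -0.11 in DND41 and 0.105 in Jurkat. With a replicate block the average effect had 34 falls and 2 rises, the rises in CEM and in Jurkat became 0, and the differences between lines became 0. With the DND41 DMSO numbers crossed in the block, the average effect had 35 falls, the rises in CEM 0 and the differences between lines 0. With 2 arrays per group, small changes in single lines are below what the arrays can separate.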
